A study of Homo sapiens with 6 samples.

Results

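Laminins, nidogens and perlecan are the secreted glycoproteins that, with type IV collagen, build the basement membrane under an epithelium. The 10 genes described here, LAMA1, LAMA2, LAMA4, LAMA5, LAMB1, LAMB2, LAMC1, NID1, NID2 and HSPG2, were taken by symbol from a deposited table of 52401 genes, and their identifiers matched a second deposited table. Their RNA was measured in MCF10AF1F2 cells, which stably carry flotillin 1 with an HA tag and flotillin 2 fused to mCherry, and in MCF10AmCherry cells, which stably carry mCherry. Each group had 3 polyA RNA libraries. Both lines derive from MCF10A, a non-tumorigenic human mammary epithelial line, and grew in the same medium with 5% horse serum, 10 µg/ml insulin, 20 ng/ml EGF, 0.5 µg/ml hydrocortisone and 100 ng/ml cholera toxin. MCF10AF1F2 carries 2 retroviral vectors and was selected with puromycin plus hygromycin; MCF10AmCherry carries 1 vector and was selected with puromycin. Each group is a single stable line, so flotillin level, number of vectors and hygromycin selection cannot be told apart. The labels do not tie the libraries of a group to separate cultures, so each p-value reflects the spread of these libraries, which may be technical.

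A laminin is a trimer of 1 alpha, 1 beta and 1 gamma chain joined in a coiled coil. The alpha chain carries the globular domains that bind integrins and dystroglycan, and the short arms of the 3 chains let trimers join into a sheet. Nidogens bind the laminin gamma 1 chain and type IV collagen, and perlecan, a proteoglycan with heparan sulfate chains, binds nidogens and laminin. In the breast a basement membrane surrounds the ducts and is made largely by the basal, myoepithelial cells.

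Promoter sequences are shown for both members that passed the authors' test, LAMB1 and HSPG2, and for LAMC1 and LAMB2, the laminin chain genes with the next-largest differences among the abundant members. Each run is the 250 bases before the RefSeq gene start, 5′ to 3′ on the gene's strand in GRCh38.p14, with matches to the GC box GGGCGG on either strand in capitals. The coordinates are chr7:108003162-108003411 (minus strand) for LAMB1, chr1:21937311-21937560 (minus strand) for HSPG2, chr1:183023170-183023419 (plus strand) for LAMC1 and chr3:49133051-49133300 (minus strand) for LAMB2.
LAMB1: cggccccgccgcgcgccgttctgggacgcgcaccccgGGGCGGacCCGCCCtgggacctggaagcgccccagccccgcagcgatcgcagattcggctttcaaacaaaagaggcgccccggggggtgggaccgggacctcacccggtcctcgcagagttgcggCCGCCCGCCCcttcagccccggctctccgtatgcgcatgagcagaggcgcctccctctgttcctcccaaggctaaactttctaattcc
HSPG2: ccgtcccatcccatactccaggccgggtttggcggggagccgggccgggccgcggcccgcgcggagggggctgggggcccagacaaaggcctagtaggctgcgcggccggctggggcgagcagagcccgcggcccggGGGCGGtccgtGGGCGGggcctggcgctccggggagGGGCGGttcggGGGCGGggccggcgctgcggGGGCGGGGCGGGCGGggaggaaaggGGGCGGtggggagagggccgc
LAMC1: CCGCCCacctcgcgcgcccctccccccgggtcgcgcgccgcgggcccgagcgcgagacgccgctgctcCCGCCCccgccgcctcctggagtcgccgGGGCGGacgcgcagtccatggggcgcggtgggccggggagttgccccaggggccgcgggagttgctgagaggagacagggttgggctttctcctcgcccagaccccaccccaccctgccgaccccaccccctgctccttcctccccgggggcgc
LAMB2: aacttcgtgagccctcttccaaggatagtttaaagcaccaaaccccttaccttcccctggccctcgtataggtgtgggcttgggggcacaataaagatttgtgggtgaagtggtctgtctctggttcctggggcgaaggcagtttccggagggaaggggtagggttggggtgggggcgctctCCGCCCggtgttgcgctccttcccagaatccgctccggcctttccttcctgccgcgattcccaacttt
Overlapping matches counted, LAMB1 held 4 GC boxes, HSPG2 8, LAMC1 3 and LAMB2 1. GC content was 70.4% for LAMB1, 82.8% for HSPG2, 79.6% for LAMC1 and 58.4% for LAMB2, and the median of all entries was 58%. The promoter table held 9 of the 10 members, and 7 of these 9 had a GC box, as did 42.6% of the 35116 entries of the same length. An E-box, searched as CACCTG on both strands, was in 1 of 9 members, LAMA5, and in 17.5% of all entries. The AP-1 motif TGANTCA was in 0 of 9 members and in 6.57% of all entries. A match is a run of letters and not a measured binding site, and the genes that passed and those that did not both held GC boxes.

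Library values below are size-factor-normalized counts, recovered from the deposited group means and numbered within a group in order of falling size factor. Genes whose counts could be recovered in both groups summed to between 18666274 and 19782335 per library. FLOT1, 1 of the introduced genes, averaged 16771 ± 2432 in MCF10AF1F2 and 1474 ± 380 in MCF10AmCherry (SD, n = 3 each). Of 8 tested epithelial markers 5 fell in the authors' deposited table of means, among them CDH1, EPCAM and TP63, while KRT5, KRT8 and ITGB4 did not pass the test. That is 62.5% called, against 23.6% of all tested genes, to which the marker counts below also compare. In the second deposited table, named Tuxedo, KRT8 was higher in MCF10AF1F2 (log2 fold change 0.79, q = 0.0338). The entry under the symbol KRT18 was listed at 0. Whether that entry is the main KRT18 gene was not checked, so it does not show that KRT18 RNA was absent. Of 6 tested fibroblast markers 3 rose and 1 fell; their summed means were 43484 in MCF10AF1F2 and 5510 in MCF10AmCherry, mostly DCN, and THY1 was listed at 0. The summed endothelial markers lay between 427 and 820 in MCF10AF1F2 and between 283 and 966 in MCF10AmCherry, with 0 of 4 tested markers called. Those of muscle and Schwann cells lay between 29.4 and 47.3 in MCF10AF1F2 and between 31.6 and 58.2 in MCF10AmCherry, with MYOD1, MYOG, CNN1 and S100B listed at 0. Of 5 tested immune markers 3 fell, and CD3E was listed at 0. The part of these markers in the results below was not tested. Library 3 of both groups stood apart in 10 cell cycle genes, which summed to 67870 in library 3 of MCF10AF1F2, against 14746 and 16280 in its other libraries, and to 60715 in library 3 of MCF10AmCherry, against 6508 and 14769.

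LAMB1 and HSPG2 fell in MCF10AF1F2, and none of the 10 genes rose. In the authors' deposited table of means, 2 of 10 members passed an adjusted p of 0.05, against 23.6% of the 19733 genes tested; falls alone made up 12.0% of them. The share of members called was thus near that of all genes. The log2 fold change of MCF10AF1F2 over MCF10AmCherry was below 0 for 8 of the 10 members. It was below 0 for 10216 of the 19733 tested genes and for 2218 of the 5175 whose mean was 1000 or more. The median was -0.44 over the members, against -0.04 over all tested genes and 0.13 over those 5175 genes. In the authors' deposited Tuxedo table, which comes from a second pipeline, 1 of 8 tested members had a q under 0.05, HSPG2, against 16.9% of 17022 genes. In a limma fit of the recovered library counts, 0 of 8 members passed an adjusted p of 0.05, against 23.4% of 15908 genes. Of the 8, HSPG2 alone had an unadjusted p under 0.05. LAMB1, which had no single set of MCF10AmCherry library counts, and NID1, with a mean under 10, could not be called in that fit. Without library 3 of both groups that fit called 3 members, HSPG2, LAMB2 and LAMC1, beside 44.1% of 16030 genes in either direction and 20.7% that fell. In such bulk libraries fewer cells of a type and less RNA per cell cannot be told apart.

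**Figure D1:**
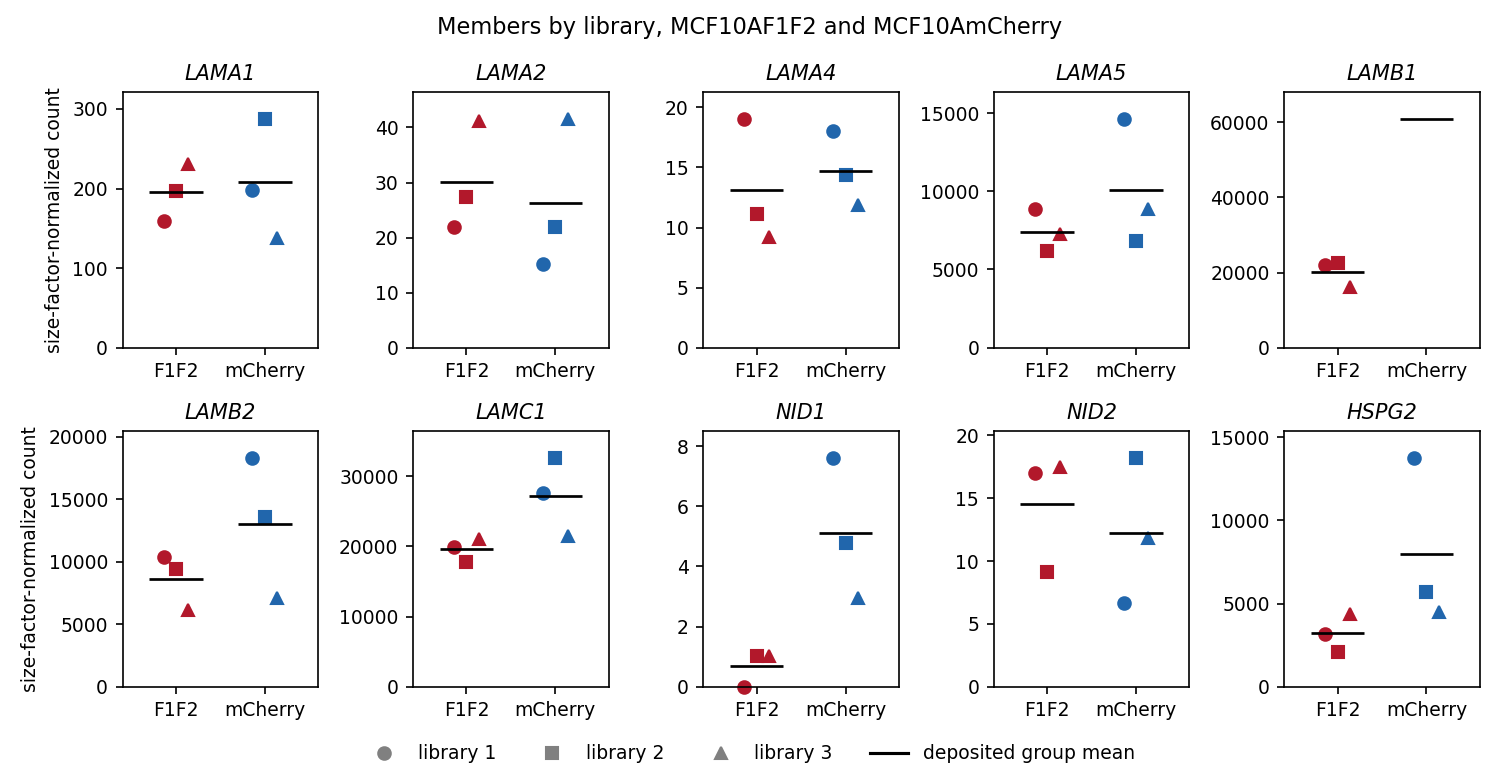
Size-factor-normalized counts of the 10 members in each recovered library (symbols, 3 per group) with the deposited group mean (black line), MCF10AF1F2 left of MCF10AmCherry, each panel with its own axis. LAMB1 has the group mean alone in MCF10AmCherry, 60771, because its library counts had 8 solutions. HSPG2, LAMC1 and NID1 are the panels in which no library of one group reaches those of the other.

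Per length, 5 members were abundant and 5 were low in both lines. The deposited FPKM (fragments per unit of length and depth) in MCF10AF1F2 was, from high to low, LAMB2 327, LAMC1 303, LAMB1 259, LAMA5 208 and HSPG2 25.8. In MCF10AmCherry it was LAMB1 945, LAMB2 609, LAMC1 458, LAMA5 328 and HSPG2 82.2. LAMB1 was thus below LAMB2 and LAMC1 by FPKM in MCF10AF1F2 and above both in MCF10AmCherry. The order by mean normalized counts, not scaled by length, differed in MCF10AF1F2: LAMB1 20205, LAMC1 19621 and LAMB2 8645. Whether length accounts for this conflict was not tested. By FPKM the low members followed in the same order in both lines, LAMA1, LAMA2, LAMA4, NID2 and NID1. LAMA1 had 1.94 FPKM in MCF10AF1F2 and 1.65 in MCF10AmCherry, LAMA2 0.986 in MCF10AF1F2 and 0.888 in MCF10AmCherry, LAMA4 0.534 in MCF10AF1F2 and 0.638 in MCF10AmCherry, and NID2 0.147 in MCF10AF1F2 and 0.141 in MCF10AmCherry. FPKM was deposited as 1 value per group without a spread. The coefficient of variation of the normalized counts over the MCF10AF1F2 libraries was 26.0% for LAMB2, 8.39% for LAMC1, 17.2% for LAMB1 and 18.5% for LAMA5. The FPKM order of LAMB2, LAMC1 and LAMB1 in that line thus lies within a spread of that size. Over the MCF10AmCherry libraries the coefficient was 43.1% for LAMB2, 20.2% for LAMC1 and 40.1% for LAMA5, and not known for LAMB1.

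Among the alpha chains LAMA5, which encodes the alpha 5 chain found in most adult epithelial basement membranes, was the abundant member. LAMA5 (chromosome 20, 60877149 to 60942368, this and the following positions in GRCh37, each the deposited locus, which can join overlapping genes) had 8872, 6149 and 7235 normalized counts in MCF10AF1F2 libraries 1 to 3, against 14593, 6793 and 8855 in MCF10AmCherry libraries 1 to 3. The groups overlapped, and the highest value was that of MCF10AmCherry library 1. The means were 7419 ± 1371 in MCF10AF1F2 and 10080 ± 4042 in MCF10AmCherry (SD, n = 3 each), and the difference did not pass the authors' test (log2 fold change -0.42, adjusted p = 0.370). Its limma difference of -0.38 (SE 0.30) came to -0.08 without MCF10AmCherry library 1. The locus also holds ADRM1, a proteasome subunit gene, with means of 887 in MCF10AF1F2 and 466 in MCF10AmCherry; whether the counting used strand is not given, so reads of overlapping genes may not be separated.

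LAMA1, LAMA2 and LAMA4 were low, and none of them passed a test. LAMA1, the alpha chain gene of early embryonic basement membranes (chromosome 18, 6941743 to 7117813), had 159, 197 and 230 normalized counts in MCF10AF1F2 and 198, 287 and 138 in MCF10AmCherry, and did not pass (adjusted p = 0.883, authors' deposited table). LAMA2, the alpha chain gene of muscle and peripheral nerve (chromosome 6, 129204286 to 129837714), had 22.0, 27.4 and 41.1 in MCF10AF1F2 and 15.2, 22.0 and 41.5 in MCF10AmCherry (adjusted p = 0.822, authors' deposited table). LAMA4, known from vessel walls (chromosome 6, 112429963 to 112627885), had 19.0, 11.1 and 9.25 in MCF10AF1F2 and 18.0, 14.3 and 11.8 in MCF10AmCherry (adjusted p = 0.870, authors' deposited table). The groups overlapped for all 3 genes, and the differences were smaller than the spread between libraries.

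LAMB1, which encodes the beta 1 chain, had the largest fall among the abundant members. LAMB1 (chromosome 7, 107531415 to 107643804, a locus shared with DLD) had 21936, 22476 and 16202 normalized counts in MCF10AF1F2, a mean of 20205 ± 3477 (SD, n = 3), against an authors' mean of 60771 in MCF10AmCherry. The mean was 3.01-fold lower in MCF10AF1F2. The authors' deposited table gives a log2 fold change of -1.44 (adjusted p = 0.0059), smaller in size than the log2 of that ratio of means. In the authors' deposited Tuxedo table the difference was 3.65-fold and missed the threshold, with a q of 0.0914. DLD, which lies in the same locus and encodes a mitochondrial dehydrogenase, had means of 3452 in MCF10AF1F2 and 3461 in MCF10AmCherry.

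The MCF10AmCherry libraries of LAMB1 could not be given singly, because 8 sets of whole counts gave the deposited mean. Over these sets the library values ranged between 9024 and 134639 normalized counts. In 5 of the 8 sets every MCF10AF1F2 library was below every MCF10AmCherry library, and in 3 the groups overlapped. The limma difference was below 0 in all 8, between -0.90 and -1.58 on the log2 scale, and its adjusted p was under 0.05 in 2 of them, 0.00531 and 0.0143. Those 2 sets had the narrowest spread among the MCF10AmCherry libraries, 1.48-fold and 2.1-fold from lowest to highest.

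LAMB2, the gene of the beta 2 chain known from neuromuscular junctions and the kidney filter, was lower on average but did not pass. LAMB2 (chromosome 3, 49158547 to 49170599) had 10407, 9412 and 6116 normalized counts in MCF10AF1F2, against 18251, 13555 and 7117 in MCF10AmCherry. Library 3 was the lowest of each group, and the groups overlapped only through MCF10AmCherry library 3. The means were 8645 ± 2246 in MCF10AF1F2 and 12975 ± 5590 in MCF10AmCherry (SD, n = 3 each), and the authors' deposited table gives a log2 fold change of -0.55 (adjusted p = 0.284). The limma difference over all libraries was -0.52 (adjusted p = 0.320), and without MCF10AmCherry library 1 it was -0.22 (adjusted p = 0.699). Without library 3 of both groups the limma difference was -0.67 (adjusted p = 0.0221), and without MCF10AmCherry library 3 alone it was -0.90 (adjusted p = 0.0367). No other alternative passed.

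LAMC1, the gene of the gamma 1 chain that most laminins contain, was lower in every MCF10AF1F2 library but did not pass. LAMC1 (chromosome 1, 182992597 to 183114727) had 19950, 17835 and 21078 normalized counts in MCF10AF1F2, against 27660, 32538 and 21540 in MCF10AmCherry. All 3 MCF10AF1F2 libraries were below all 3 MCF10AmCherry libraries, with MCF10AmCherry library 3 close to the highest of MCF10AF1F2. The means were 19621 ± 1647 in MCF10AF1F2 and 27246 ± 5511 in MCF10AmCherry (SD, n = 3 each), and the difference did not pass the authors' test (log2 fold change -0.46, adjusted p = 0.161) or limma (-0.46, SE 0.21, adjusted p = 0.149). Without library 3 of both groups limma gave -0.67 (adjusted p = 0.0167), and without MCF10AmCherry library 3 alone -0.62 (adjusted p = 0.0417). Of the 8 members with library counts and a mean of at least 10, 2 had no overlap with MCF10AF1F2 lower, LAMC1 and HSPG2, beside 21.1% of 15908 genes under the same filter.

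The nidogens, which tie laminin to type IV collagen, were near the detection floor. NID1 (chromosome 1, 236139130 to 236228481) had library counts of 0, 1 and 1 in MCF10AF1F2, against 8, 5 and 3 in MCF10AmCherry. The groups did not overlap, but the gene did not pass (adjusted p = 0.119, authors' deposited table), and the Tuxedo table did not test the gene. NID2 (chromosome 14, 52471521 to 52536545) had 17, 9.12 and 17.5 normalized counts in MCF10AF1F2 and 6.64, 18.2 and 11.8 in MCF10AmCherry, with overlapping groups (adjusted p = 0.818, authors' deposited table). The log2 ratio of NID2 to NID1, taken on normalized counts + 1, was higher in MCF10AF1F2 than in MCF10AmCherry by 2.14 (exact permutation p = 0.1, two-sided, the smallest that 3 against 3 libraries allow; 0.2 adjusted over the 2 pairs of chains tested). That ratio rests on 2 NID1 counts in the MCF10AF1F2 libraries together, so its size depends on the added 1; the difference was 3.56 by deposited FPKM and 1.52 without MCF10AmCherry library 1.

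HSPG2, which encodes the perlecan core protein, fell in both deposited tables. HSPG2 (chromosome 1, 22138758 to 22263790, a locus joined with LDLRAD2) had 3142, 2096 and 4402 normalized counts in MCF10AF1F2, against 13737, 5703 and 4463 in MCF10AmCherry. The groups did not overlap, but library 3 of MCF10AF1F2 and library 3 of MCF10AmCherry lay next to each other, and MCF10AmCherry library 1 was far above the rest. The means were 3214 ± 1154 in MCF10AF1F2 and 7968 ± 5035 in MCF10AmCherry (SD, n = 3 each), 2.48-fold lower in MCF10AF1F2. The log2 fold change was -1.19 (adjusted p = 0.0259) in the authors' deposited table of means and -1.67 (q = 0.0413) in the authors' deposited Tuxedo table.

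The HSPG2 call was lost in the limma fit, with a log2 difference of -1.20 (SE 0.45, adjusted p = 0.0916). Without MCF10AmCherry library 1 the difference was -0.72 (adjusted p = 0.192), and without library 3 of both groups it was -1.79 (adjusted p = 0.037). LDLRAD2 had means of 3.37 in MCF10AF1F2 and 15 in MCF10AmCherry, small beside those of HSPG2.

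**Figure D2:**
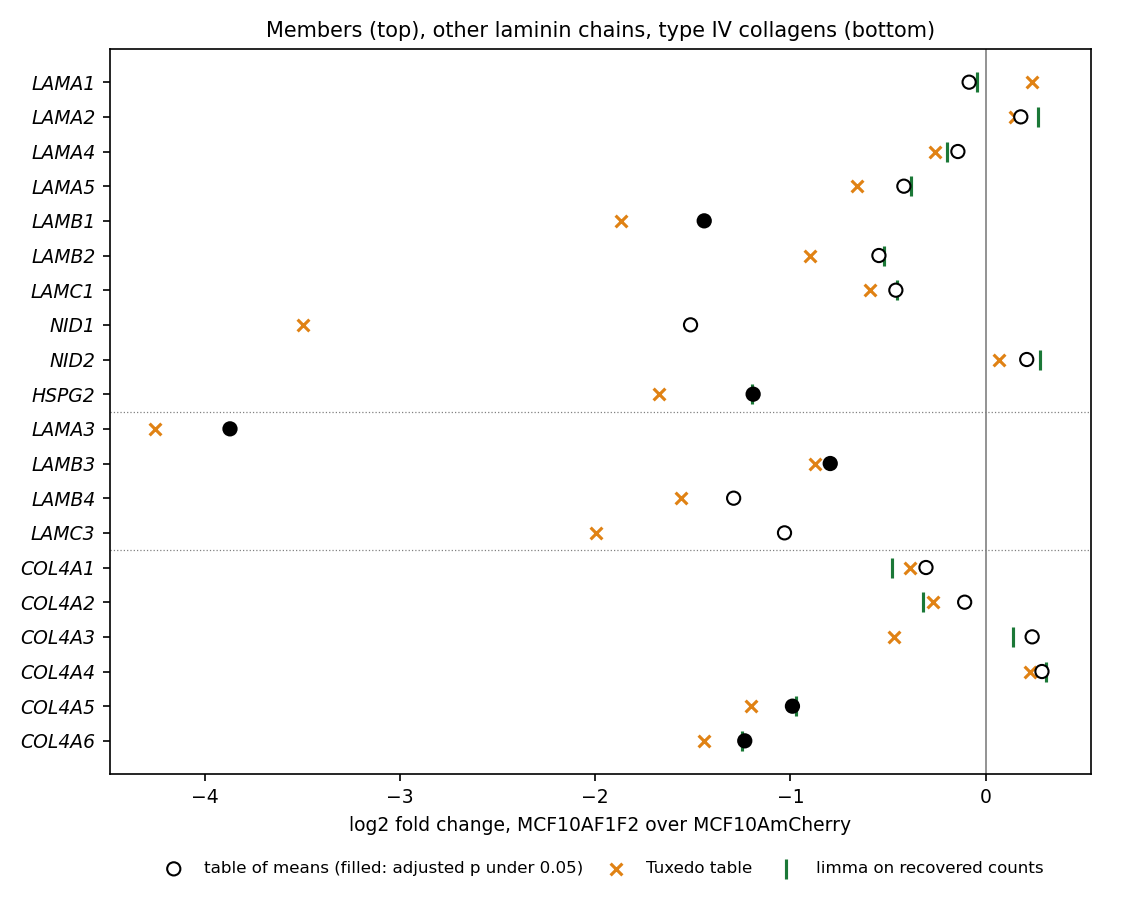
Log2 fold change of MCF10AF1F2 over MCF10AmCherry for the 10 members, 4 other laminin chain genes and the 6 type IV collagen genes, from the table of means (circles, filled where the adjusted p was under 0.05), the Tuxedo table (crosses) and limma on the recovered counts (bars). The filled circles are LAMB1, HSPG2, LAMA3, LAMB3, COL4A5 and COL4A6, all left of 0. NID1 rests on very few counts.

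Of 4 laminin chain genes outside the members, all had log2 fold changes below 0 and 2 fell (50% called, against 23.6% of all tested genes, to which the shares of the lists below also compare), LAMA3 and LAMB3, whose chains belong to the laminin of epithelial anchoring sites. LAMA3 had 2375, 2345 and 2991 normalized counts in MCF10AF1F2, against an authors' mean of 41261 in MCF10AmCherry, a 16.1-fold lower level (log2 fold change -3.87, adjusted p = 4.52e-45, authors' deposited table). LAMB3 averaged 14555 ± 1802 in MCF10AF1F2 (SD, n = 3), against an authors' mean of 25944 in MCF10AmCherry, and its call (-0.80, adjusted p = 0.0417, authors' deposited table) missed the threshold in the Tuxedo table with a q of 0.0537. LAMB4 (mean 4.75 in MCF10AF1F2 and 15 in MCF10AmCherry) and LAMC3 (2.71 in MCF10AF1F2 and 7.69 in MCF10AmCherry) were low and did not pass.

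By FPKM, the make-up of the alpha chains differed more than that of the beta chains. LAMA5 made up 91.9% of alpha chain FPKM in MCF10AF1F2 and 53.4% in MCF10AmCherry, and LAMA3 made up 6.54% in MCF10AF1F2 and 46.1% in MCF10AmCherry. The alpha chain total was 226 FPKM in MCF10AF1F2 and 614 in MCF10AmCherry and the beta chain total was 783 in MCF10AF1F2 and 1917 in MCF10AmCherry. LAMB1 made up 33.0% of the beta total in MCF10AF1F2 and 49.3% in MCF10AmCherry, LAMB2 41.7% in MCF10AF1F2 and 31.8% in MCF10AmCherry, and LAMB3 25.2% in MCF10AF1F2 and 18.9% in MCF10AmCherry. These shares come from 1 value per group and have no error. The table of means, which is not scaled by length, orders the alpha chains of MCF10AmCherry the other way, with LAMA3 at 41261 and LAMA5 at 10080 normalized counts. Whether length accounts for this conflict was not tested, so the shares hold for FPKM alone.

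**Figure D3:**
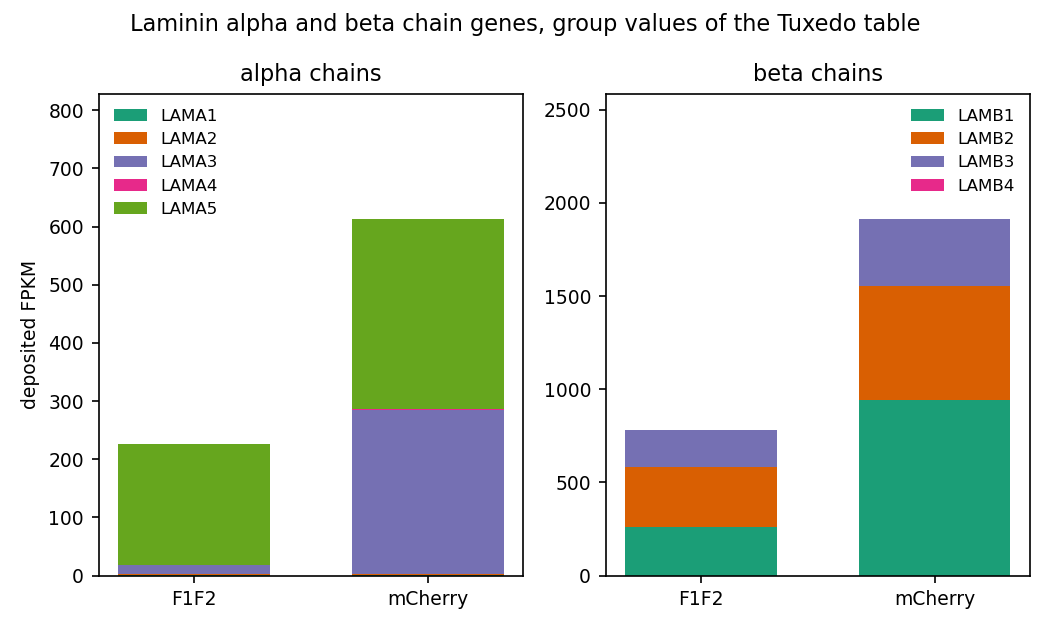
Deposited FPKM of the laminin chain genes, stacked by gene within the alpha and beta classes, MCF10AF1F2 left of MCF10AmCherry. The alpha bar is 226 FPKM in MCF10AF1F2 and 614 in MCF10AmCherry, and nearly all of the MCF10AF1F2 bar is LAMA5.

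Ratios between 2 chains of a class were taken within a library, on normalized counts + 1, and tested where both genes had recovered counts. The log2 ratio of LAMA5 to LAMA4 was lower in MCF10AF1F2 than in MCF10AmCherry by a difference of -0.19 (exact permutation p = 0.8, two-sided, 0.8 adjusted over the 2 pairs), smaller than the spread between libraries of 0.35 in MCF10AF1F2 and 0.42 in MCF10AmCherry (SD). For LAMB2 and LAMB1 the ratio of the deposited means was 0.428 in MCF10AF1F2 and 0.213 in MCF10AmCherry, and that of FPKM was 1.26 in MCF10AF1F2 and 0.645 in MCF10AmCherry. Over the 8 count sets of LAMB1, the log2 difference in that ratio lay between 0.39 and 1.07, with exact permutation p-values from 0.1 to 1.

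Type IV collagen, the network that nidogens and perlecan link to laminin, had 2 of 6 genes that fell and 0 that rose (33.3% called), with a median log2 fold change of -0.21. COL4A6 had 3884, 3396 and 3671 normalized counts in MCF10AF1F2, against 9932, 10011 and 6528 in MCF10AmCherry (log2 fold change -1.23, adjusted p = 2.94e-05, authors' deposited table). COL4A5, its neighbour and partner chain gene, averaged 6949 ± 984 in MCF10AF1F2 and 14353 ± 5480 in MCF10AmCherry (SD, n = 3 each; -0.99, adjusted p = 0.0178, authors' deposited table); the call missed the threshold in the Tuxedo table (q = 0.0575) and in limma (adjusted p = 0.0637). COL4A1 and COL4A2, the chains of nearly all basement membranes, did not pass (adjusted p = 0.596 and 0.882, authors' deposited table). For both, MCF10AF1F2 library 3 was the highest of its group, at 4095 for COL4A1 and 8916 for COL4A2. COL4A3 averaged 37.4 in MCF10AF1F2 and 31.1 in MCF10AmCherry, and COL4A4 averaged 176 ± 13.4 in MCF10AF1F2 and 144 ± 25.1 in MCF10AmCherry (SD, n = 3 each); neither passed.

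Of 19 other tested basement membrane components, 7 fell and 1 rose (42.1% called), with a median log2 fold change of -0.54. COL17A1, a collagen of hemidesmosomes that spans the cell membrane, averaged 934 ± 261 in MCF10AF1F2 (SD, n = 3), against an authors' mean of 31039 in MCF10AmCherry, 33.2-fold lower. TINAGL1, a matrix glycoprotein gene, averaged 47.9 ± 26.3 in MCF10AF1F2 and 1642 ± 269 in MCF10AmCherry (SD, n = 3 each). FRAS1, which belongs to a complex beneath the epidermal basement membrane, averaged 127 ± 85.2 in MCF10AF1F2 and 1162 ± 215 in MCF10AmCherry, and FREM2, its partner, 11.6 ± 13.1 in MCF10AF1F2 and 120 ± 71.6 in MCF10AmCherry (SD, n = 3 each). Their log2 fold changes in the authors' deposited table were -4.81 for COL17A1 (adjusted p = 1.80e-48), -4.75 for TINAGL1 (5.58e-35), -2.92 for FRAS1 (1.05e-10) and -2.69 for FREM2 (7.83e-05). The Tuxedo table did not test FREM2.

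Of 12 tested laminin receptor genes, 6 fell and 1 rose (58.3% called, against 23.6% of all tested genes). BCAM, a receptor for the alpha 5 chain, averaged 30.7 ± 7.8 in MCF10AF1F2 and 394 ± 176 in MCF10AmCherry (SD, n = 3 each; log2 fold change -3.37, adjusted p = 1.43e-14, authors' deposited table). ITGA6, the alpha 6 integrin subunit gene, averaged 3844 ± 1022 in MCF10AF1F2 and 29303 ± 5579 in MCF10AmCherry (SD, n = 3 each; -2.82, adjusted p = 3.60e-21, authors' deposited table). SDC1, a heparan sulfate proteoglycan of the cell surface, and ITGA2, a collagen and laminin receptor subunit, fell too: the authors' deposited table gives -3.20 for SDC1 (adjusted p = 1.98e-18) and -2.68 for ITGA2 (adjusted p = 3.90e-15). Another 4 receptor genes were picked after their values were seen. DAG1, which encodes dystroglycan, fell (log2 fold change -0.79, adjusted p = 0.0227, authors' deposited table) but not in the Tuxedo table (q = 0.224), and ITGA3, ITGB1 and ITGB4, the partner subunits of laminin-binding integrins, had log2 fold changes of -0.11, -0.35 and -0.04 and did not pass.

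Of 9 tested genes of the dystroglycan complex 2 fell, DMD and SGCE, and 1 rose, DTNB (33.3% called, against 23.6% of all tested genes). DMD, the gene of dystrophin, averaged 304 ± 32.1 in MCF10AF1F2 and 653 ± 24.0 in MCF10AmCherry, and SGCE, a sarcoglycan gene, 667 ± 66.6 in MCF10AF1F2 and 1081 ± 73.3 in MCF10AmCherry (SD, n = 3 each); the SGCE call missed the threshold in the Tuxedo table (q = 0.0708). DTNB, a dystrobrevin gene, averaged 372 ± 51.5 in MCF10AF1F2 and 241 ± 13.9 in MCF10AmCherry (SD, n = 3 each; adjusted p = 0.048, authors' deposited table), and it did not pass in the Tuxedo table (q = 0.587) or in limma (adjusted p = 0.0672). Of 12 tested enzymes of the laminin-binding sugar of dystroglycan 2 fell (16.7% called). GYLTL1B, also called LARGE2, which extends that sugar, averaged 5.72 ± 3.22 in MCF10AF1F2 and 87.4 ± 27.1 in MCF10AmCherry (SD, n = 3 each), and POMT1, which starts it, 826 ± 96.7 in MCF10AF1F2 and 1416 ± 371 in MCF10AmCherry (SD, n = 3 each); the POMT1 call missed the threshold in the Tuxedo table (q = 0.109) and in limma (adjusted p = 0.0519).

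Heparan sulfate, the sugar that perlecan carries, had 8 of 23 tested synthesis and editing genes that fell and 1 that rose (39.1% called, against 23.6% of all tested genes), with a median log2 fold change of -0.51. EXT1, a polymerase of the chain, had 2402, 2170 and 2744 normalized counts in MCF10AF1F2, against 5438, 6200 and 4885 in MCF10AmCherry (log2 fold change -1.15, adjusted p = 7.96e-06, authors' deposited table). HS6ST1, a sulfotransferase gene, averaged 611 ± 65.4 in MCF10AF1F2 and 1288 ± 273 in MCF10AmCherry (SD, n = 3 each; -1.04, adjusted p = 0.000686, authors' deposited table). The groups did not overlap for either gene. HS3ST1 averaged 6.44 ± 2.63 in MCF10AF1F2 and 25.9 ± 13.5 in MCF10AmCherry, and HS6ST3, which rose, 16.8 ± 6.6 in MCF10AF1F2 and 0.954 ± 0.956 in MCF10AmCherry (SD, n = 3 each). The HS6ST3 call did not pass in the Tuxedo table (q = 0.476).

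Of 13 tested proteases known to cut laminin, nidogen or perlecan, 3 fell and 1 rose (30.8% called, against 23.6% of all tested genes). MMP2, a gelatinase gene, had 2379, 1252 and 2131 normalized counts in MCF10AF1F2, against 297, 145 and 85.9 in MCF10AmCherry, 10.9-fold higher in MCF10AF1F2 (log2 fold change 3.14, adjusted p = 7.51e-12, authors' deposited table). MMP9, a second gelatinase gene, was at 0 in all 3 MCF10AF1F2 libraries. In MCF10AmCherry it averaged 5.85 ± 5.28 (SD, n = 3), with 3.79, 1.91 and 11.8 normalized counts. Its call (adjusted p = 0.0266, authors' deposited table) thus rests on low counts. The Tuxedo table did not test MMP9, and the main limma fit did not include it. TLL1, a relative of the protease BMP1, averaged 42.1 ± 34.6 in MCF10AF1F2 and 195 ± 23.4 in MCF10AmCherry, and MMP14, a membrane-bound protease that activates MMP2, 5721 ± 355 in MCF10AF1F2 and 10216 ± 3297 in MCF10AmCherry (SD, n = 3 each); the MMP14 call missed the threshold in limma (adjusted p = 0.0506). Over the 8 lists together 32 of 98 tested genes fell and 5 rose, with a median log2 fold change of -0.39. That is 37.8% called, against 23.6% of all tested genes, of which 12.0% fell and 11.6% rose. Without library 3 of both groups limma called 50 of 81 genes of these lists (61.7%), against 44.1% of all genes.

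**Figure D4:**
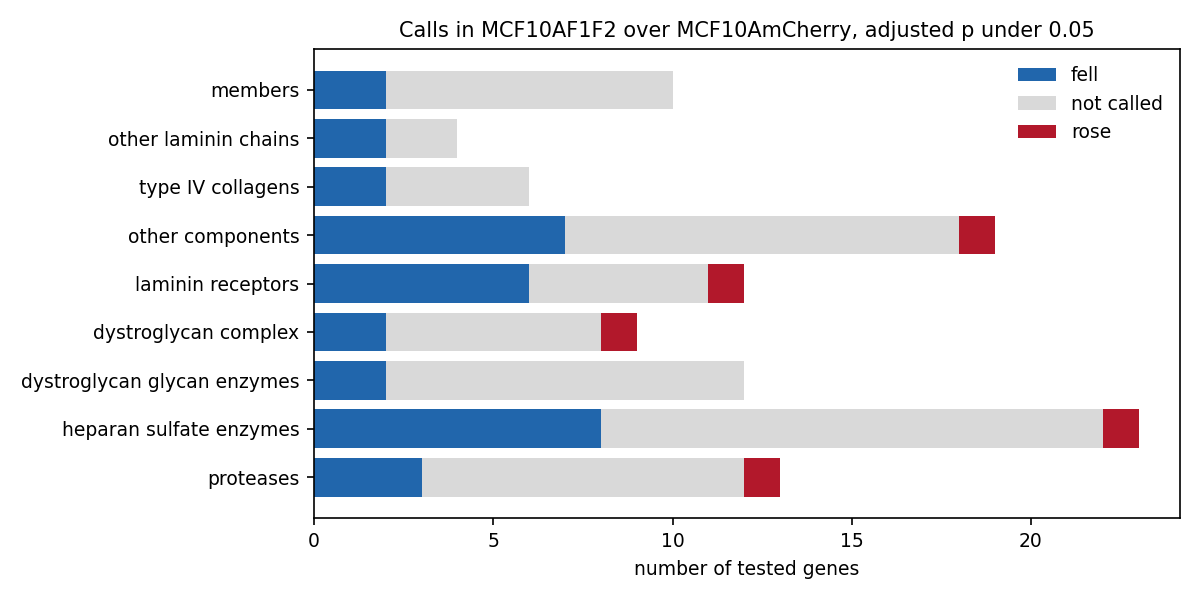
Number of tested genes that fell, did not pass and rose in MCF10AF1F2 over MCF10AmCherry, by the adjusted p of the authors' deposited table (threshold 0.05), for the members and 8 lists of basement membrane genes (horizontal axis, number of genes). Falls outnumber rises in every list shown, 2 against 0 among the members.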

How the data were processed

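RNA was measured in 6 polyA libraries, 3 per line, made with a stranded kit and run on a HiSeq instrument, per the labels' protocols. The submitters' processing notes name build GRCh37, bcl2fastq, the aligner HISAT2 2.1.0, the counter HTSeq 0.9.1 and the test package DESeq2 1.18.1. The authors deposited 2 tables. One holds a signal, the group mean of size-factor-normalized counts, with log2 fold changes, p-values and adjusted p-values, per the file headers. For every member its log2 fold change was smaller in size than the log2 of the ratio of its 2 means, by most for NID1. The reason was not tested. The Tuxedo table holds 1 FPKM value per group, a log2 fold change, a test score and q-values, per the file headers.

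Each deposited mean has 15 digits, so library counts were found as the whole numbers that give it; a single solution existed for 99.7% of means above 0. The means with several solutions, 74 in MCF10AF1F2 and 68 in MCF10AmCherry, hold 18.3% of normalized counts in MCF10AF1F2 and 19.1% in MCF10AmCherry. A single solution was missing in either group for 103 genes. These whole numbers may not be reads: in MCF10AmCherry library 1 only 25 genes had a count of 2, against 1327 to 1440 in the other libraries, so depth in reads is not known, and whether counts were scaled before deposition was not tested. Libraries carry no replicate number and were numbered by size factor.

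The main result is the authors' adjusted p under 0.05. limma 3.58.1 (R 4.3.3, trend and robust, Benjamini-Hochberg) was fitted to log2(normalized count + 1) of recovered genes with a mean of at least 10, after a check on simulated data; fold changes on that scale understate those of low genes. Exact permutation tests compared chain ratios. The planned family of 4 ratios was reduced to the 2 with recovered counts in every library; a few planned genes are not reported here. Promoters came from RefSeq in GRCh38.p14. Named genes were all members, other laminin chains, type IV collagens and, of each other list, the 4 called genes with the largest absolute log2 fold change. Members and lists were chosen with earlier results of these data known.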

Additional observations from a re-analysis of the deposited data

How the results depend on the processing

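LAMA5 kept its direction and its side of the threshold under every alternative run. LAMB1 was -1.87 in the Tuxedo table (q = 0.0914); with the count sets of its MCF10AmCherry mean, an alternative chosen after seeing the data, limma gave -0.90, -1.35, -1.0, -1.22, -1.37 and -1.33 in the 6 sets that did not pass. HSPG2 missed the threshold in limma at -1.20 (adjusted p = 0.0916), also with pseudocounts of 0.5 and 5 (-1.20 each), no filter on low values or a mean of at least 100 (-1.20 each), and at -1.21 with TMM scaling; leave-one-out fits, each without 1 library, gave -1.53 to -0.72, with -0.92 without MCF10AF1F2 library 2 and -1.46 without MCF10AF1F2 library 3 (the highest without MCF10AmCherry library 1); the call held at -1.53 without MCF10AmCherry library 3 (adjusted p = 0.0369) and without library 3 of both groups. LAMB2 and LAMC1 passed at -0.67 each without library 3 of both groups, and leave-one-out gave -0.90 to -0.22 for LAMB2 and -0.62 to -0.32 for LAMC1. LAMA1 was 0.24 in the Tuxedo table; leave-one-out gave -0.30 to 0.22 for LAMA1 (0.097 without MCF10AF1F2 library 1), -0.050 to 0.65 for LAMA2, -0.48 to 0.0046 for LAMA4 and -0.067 to 0.60 for NID2. The number of members called was 1 at an adjusted p under 0.01, 1 in the Tuxedo table, 0 in limma under each scaling, pseudocount and filter, and 0 to 3 in the leave-one-out fits. LAMB1 is in none of those limma fits, and NID1 only in the one with no filter, where it did not pass. The 37 calls of the 8 lists came to 24 at an adjusted p under 0.01 and 23 in the Tuxedo table. Limma gave 26, also with pseudocounts of 0.5 and 5, 28 with TMM scaling or no filter, and 24 with a mean of at least 100. Without library 3 of both groups it gave 50. The leave-one-out fits gave 13 to 36, with 19 and 17 without MCF10AmCherry libraries 1 and 2. Of all tested genes, 23.6% were called in the table of means and 16.9% in the Tuxedo table. For the stricter threshold and the leave-one-out fits that share is not given here. The limma fits also lack LAMA3, LAMB3 and COL17A1, so lower counts are not read as a result about these genes. The causes were not tested. No paired analysis was possible because the deposited columns are group means and the recovered libraries carry no replicate numbers.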
